A study of Triticum aestivum with 54 samples.

Results

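Leaf expression of the synthetic tetraploid wheat AT2 was compared with that of the natural tetraploid wheats TD and TTR13 on 18 of the 54 arrays of the series, 12 of AT2 and 6 of the natural tetraploids. AT2 is a colchicine-doubled hybrid of Aegilops longissima TL05, the female parent, and Triticum urartu TMU06, with the genomes SlSlAA, and was sampled at the selfed generations S5, S6, S7 and S8. TD is an accession of the wild T. turgidum ssp. dicoccoides and TTR13 one of the domesticated T. turgidum ssp. durum, both with the genomes BBAA. Each of these 6 genotypes had 3 arrays, each of RNA pooled from the second leaf of several 3-week-old, untreated seedlings. The 9 leaf arrays of the 2 diploid parents and of their RNA mixed at 1:1 (Mix) helped to estimate the spread between arrays, and their levels are given for reference. AT2 is a single synthetic line whose 4 generations descend from one another, and each natural tetraploid is 1 accession. Genome composition, genotype and any batch therefore cannot be told apart. The genotype field of the labels reads AT2 for every array and the organism field reads Triticum aestivum, so the genotype was taken from the array titles.

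An allotetraploid carries the genomes of a pair of diploid species in one nucleus, so most of its genes are present as homeologs, one from each parent. The natural tetraploids arose from a hybrid between T. urartu, the donor of the A genome, and a relative of Ae. speltoides, whose S genome became the B genome, and have since lived through long evolution and, in durum, domestication. A newly made tetraploid from Ae. longissima and T. urartu places a related but not identical S genome beside an A genome. The array was designed on hexaploid wheat transcripts and not to tell the subgenomes apart, so a probe set reads the sum of the homeologs that its probes bind. Whether the probes bind RNA of the S, A and B genomes alike was not tested.

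The natural tetraploids stood apart from every other leaf genotype. On the first principal component, with 41.7% of the variance, the AT2 arrays lay between -53.5 and -41.7 and the natural arrays between 140.1 and 144.4, while the parents and Mix lay on the side of AT2. Across the 24586 probe sets kept, the correlation of an AT2 with a natural array was 0.716 to 0.768. It was 0.91 to 0.993 between AT2 arrays, 0.872 to 0.907 between TD and TTR13, and 0.91 to 0.964 between Mix and AT2. T. urartu arrays correlated at 0.845 to 0.9 with AT2 and at 0.726 to 0.749 with the natural arrays. For Ae. longissima these ranges were 0.782 to 0.839 and 0.658 to 0.677. These are descriptions across probe sets, which are not independent. The tissue label fitted the markers of leaf: the photosynthesis genes PRK and PsbO were at 13.5 to 13.8 and 13.6 to 13.9 in AT2 leaves, and at 13.6 to 13.8 and 13.7 to 13.8 in natural leaves. In young inflorescence PRK was at 6.07 to 7.36 in AT2 and at 6.13 to 6.52 in the natural tetraploids. The anther markers did not tell the tissues apart. Both raftin1a probe sets were under the array median on every tetraploid array in either tissue. At Ta4091.1.S1_x_at raftin1b was above it on every tetraploid leaf array.

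**Figure D1:**
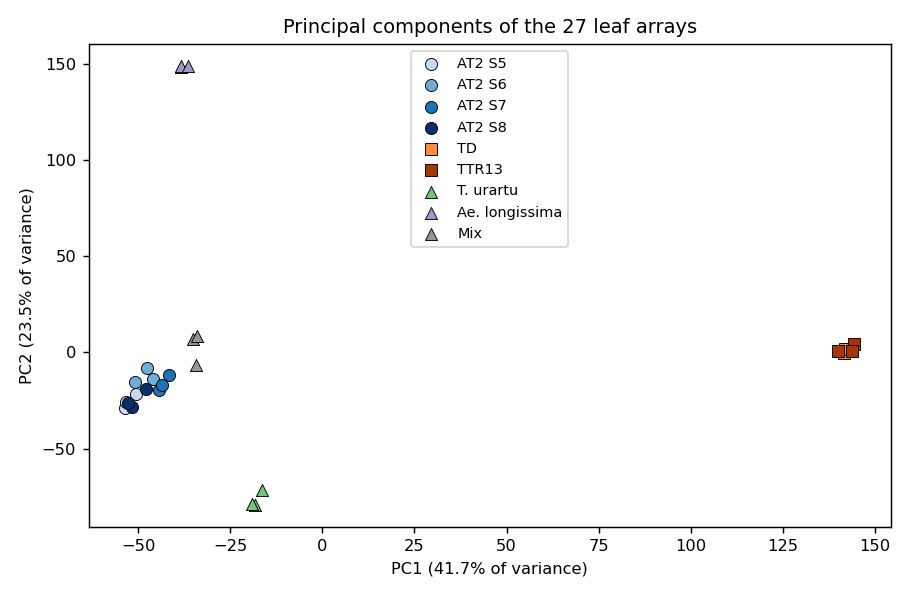
First and second principal component of the 27 leaf arrays over the kept probe sets, with circles for AT2, squares for the natural tetraploids and triangles for the parents and Mix. The 6 natural arrays lie at 140.1 to 144.4 on PC1, and the 12 AT2 arrays at -53.5 to -41.7.

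The main comparison set the mean of the 4 AT2 generations against the mean of TD and TTR13. Of 24586 probe sets, 14313 were called (58.2%) at an adjusted p under 0.05. In AT2 leaves 8932 were higher (36.3%) and 5381 were lower (21.9%). The rises were more numerous and smaller, with a median log2 difference of 0.66, and the falls were fewer and larger, with a median of -1.03. Over all kept probe sets the median was 0.12, and the median standard error of a difference was 0.0898. At 2-fold or more 2368 probe sets rose and 2743 fell, at 4-fold or more 652 rose and 1440 fell, and at 16-fold or more 104 rose and 404 fell. The levels of all 12 AT2 arrays lay above those of all 6 natural arrays for 3373 kept probe sets (13.7%), called or not. They lay below them for 2601 (10.6%). The counts of calls rest on the spread between pools of seedlings. When the 6 genotype means were the units, 654 probe sets were higher and 1393 lower, and with genotype as a random block 2310 were higher and 2242 lower. Both fits count the 4 generations of a single line as independent genotypes, so these counts too describe only these lines. With Benjamini-Hochberg adjustment the fit of genotype means called 2715 higher and 2431 lower, so whether rises or falls are more numerous depends on the unit and the adjustment.

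**Figure D2:**
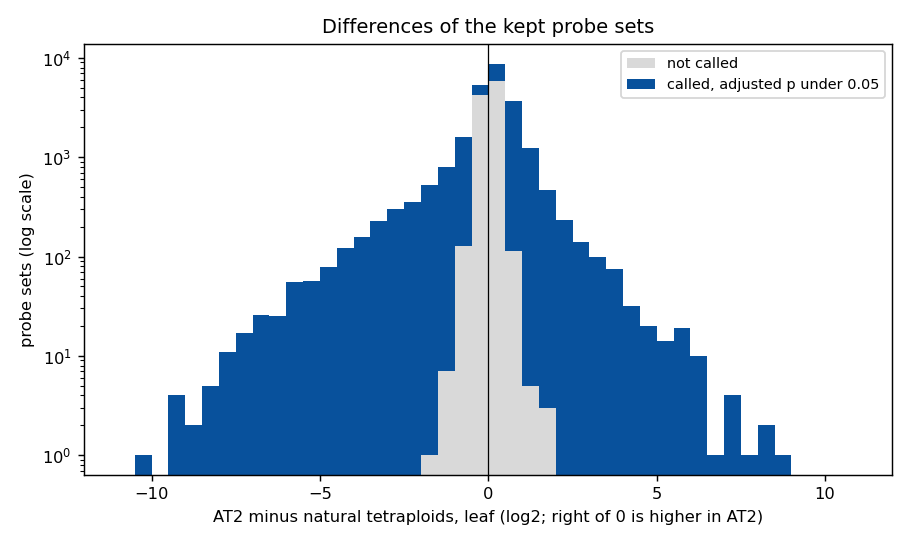
Number of probe sets (log scale) by the log2 difference of AT2 minus the natural tetraploids in leaf, with called probe sets in blue stacked on the others in grey. The falls reach -10.47 and the rises 8.64, and 404 called probe sets fell by 16-fold or more while 104 rose by as much.

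The generations and the natural accessions also differed among themselves. The F test over S5 to S8 called 9071 probe sets (36.9%), and TD differed from TTR13 at 5693 (23.2%). Against TD, 6611 probe sets were higher in S5, 6350 in S6, 5032 in S7 and 6742 in S8, and 4526, 4452, 4688 and 4707 were lower. Against TTR13, 7244 were higher in S5, 7190 in S6, 5698 in S7 and 7040 in S8, and 4311, 4525, 4283 and 4454 were lower. The number of rises was smallest in S7 against either accession, while the number of falls was similar in all generations. S7 had the lowest of the 4 generation means at 40.3% of the probe sets called higher, against 16.5% for S5, 26.4% for S6 and 16.8% for S8. Of the probe sets called lower, the highest mean was that of S5 at 23%, S6 at 31.1%, S7 at 27.3% and S8 at 18.5%. Such shares were not taken over all kept probe sets. The comparisons of the generations with TD or TTR13 share their control arrays. All 8 pairs of a generation with an accession were called in one direction for 1984 probe sets that were higher in AT2 (8.07%) and 2066 that were lower (8.4%). A further 1885 probe sets had pairs called in both directions.

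The 5 largest fitted rises with no overlap of arrays were at probe sets that carry no gene name in the annotation. Ta521.1.S1_at had 9.71, 10.64 and 12.39 (lowest, median and highest log2 level) in AT2 leaves, and 2.00, 2.11 and 2.30 in natural leaves. The natural levels lay under the median of their arrays, which was 4.73 to 4.80 in the tetraploids, and levels under it cannot be told apart from background. Set against that median the rise was at least 64.5-fold (fitted log2 difference 8.64, SE 0.33, adjusted p = 1.03e-15). Its means were 10.41, 9.87, 11.05 and 11.71 in S5 to S8, against 4.94 in Ae. longissima, 2.15 in T. urartu and 4.33 in Mix, so it was the only one of the 5 whose level in AT2 was not approached in any parental or Mix array.

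The other leading rises were high in at least one parent. Ta23035.1.A1_s_at had 10.58, 11.81 and 12.30 in AT2 leaves and 3.08, 3.32 and 3.60 in natural leaves, a rise of at least 120.1-fold (log2 difference 8.31, SE 0.15, adjusted p = 1.13e-21). TaAffx97737.1.A1_at had 8.33, 10.64 and 11.57 in AT2 leaves and 2.75, 2.91 and 3.23 in natural leaves, at least 50.1-fold (7.44, SE 0.27, adjusted p = 5.12e-16). Both were high in T. urartu, at 12.38 and 10.02, and at 3.77 and 3.01 in Ae. longissima. Ta7259.1.S1_a_at showed the other parent's pattern, with 11.37 in Ae. longissima and 3.14 in T. urartu. It had 10.42, 10.77 and 10.96 in AT2 leaves and 2.54, 2.70 and 3.08 in natural leaves, at least 64.2-fold (8.02, SE 0.11, adjusted p = 3.07e-24). Ta24245.1.A1_at was high in both parents, at 10.93 and 11.21, and had 12.06, 12.29 and 12.86 in AT2 leaves and 4.44, 4.84 and 5.12 in natural leaves (7.59, SE 0.11, adjusted p = 8.72e-24), where 3 of the 6 arrays were under their median.

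The 5 largest fitted falls, also without a gene name, were of one kind: high in both accessions and under the array median in all AT2, parental and Mix leaves. Ta30807.1.S1_at had 2.24, 2.59 and 3.16 in AT2 leaves and 12.54, 13.17 and 13.46 in natural leaves, at least 324.2-fold lower (fitted log2 difference -10.47, SE 0.10, adjusted p = 6.39e-26). Ta28695.3.S1_at had 3.01, 3.14 and 3.73 in AT2 leaves and 12.20, 12.79 and 13.01 in natural leaves, at least 245.8-fold lower (-9.43, SE 0.14). TaAffx80290.1.S1_x_at had 3.16, 3.50 and 4.34 in AT2 leaves and 12.97, 13.03 and 13.15 in natural leaves, at least 313.7-fold lower (-9.43, SE 0.08). In none of these did an AT2 array come near a natural one. Ta303.2.S1_at had 2.30, 2.78 and 3.47 in AT2 leaves and 11.92, 12.05 and 12.43 in natural leaves, at least 163.8-fold lower (-9.25, SE 0.16). Ta611.1.A1_at had 2.24, 2.45 and 2.95 in AT2 leaves and 11.26, 11.52 and 11.71 in natural leaves, at least 109.0-fold lower (-9.06, SE 0.09). Their means in the parents and Mix were 2.33 to 3.87.

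**Figure D3:**
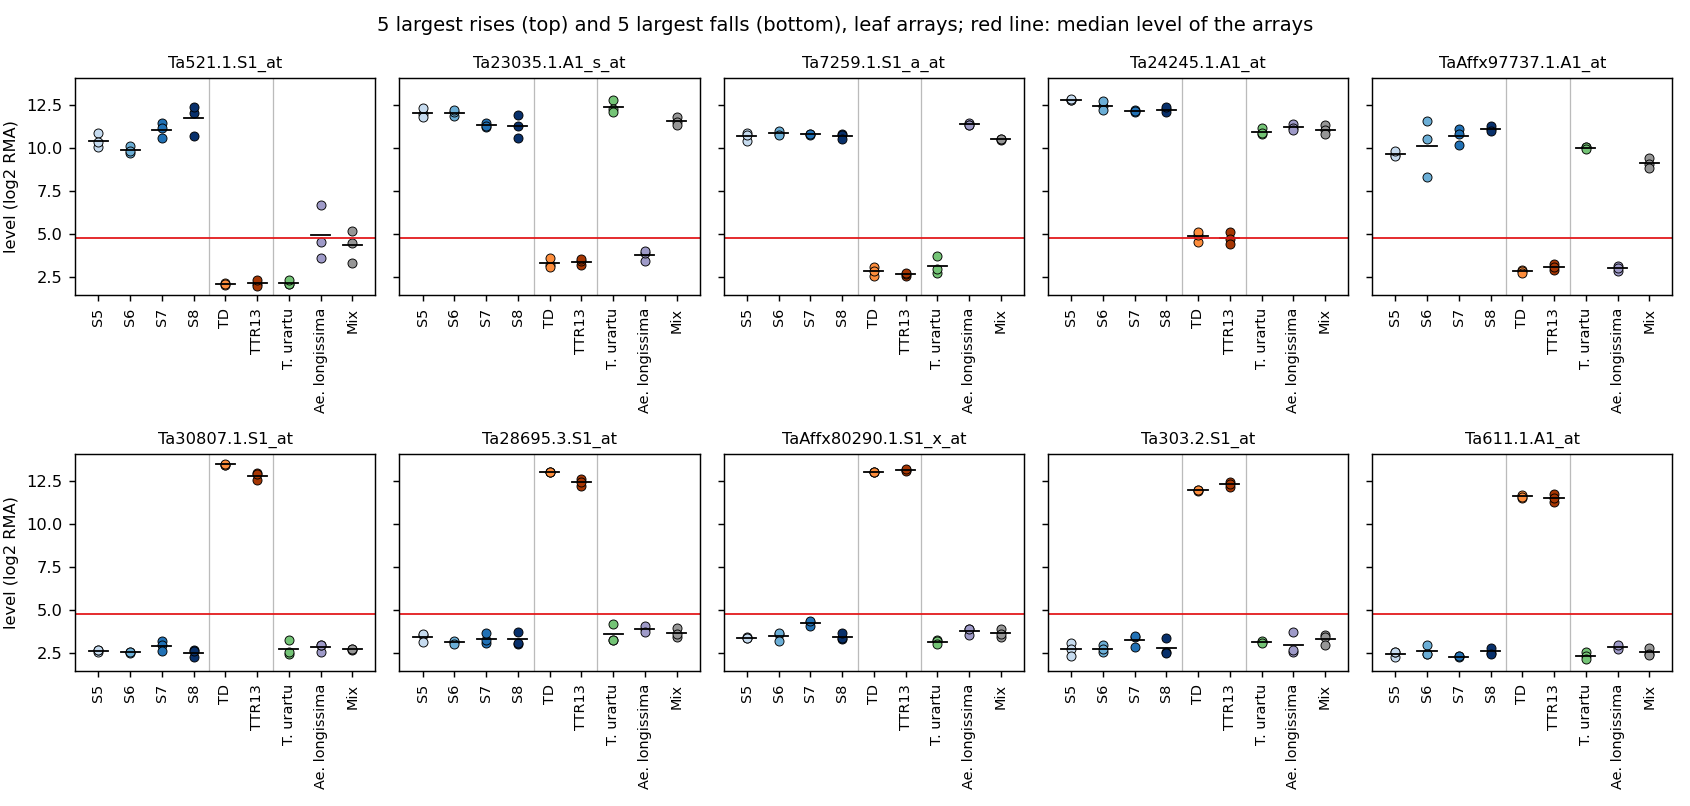
Log2 level on every leaf array of the 5 probe sets with the largest rises and the 5 with the largest falls in AT2, with bars for genotype means and a red line at the median level of the arrays. All 5 falls are high in TD and TTR13 and under the line in every other genotype, while 4 of the 5 rises are also high in T. urartu, Ae. longissima or both.

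In all there were 253 probe sets (1.03%) above the array median on all 12 AT2 arrays and under it on all 6 natural arrays, and 667 (2.71%) with the opposite pattern. These levels chose the sets, and AT2 descends from the parents and resembled their mixture, so the choice itself favours high parental levels in the first set and low ones in the second. The parental levels are given as a description. Of the 253 that were above the median in AT2 alone, 101 were above it on all arrays of Ae. longissima and under it on all of T. urartu. A further 47 had the reverse pattern of the parents. Over all kept probe sets these patterns were found at 2.2% and 3.86%. Of the rest, 28 were above it in both parents, 58 were mixed, and 19 (7.51%) were under it on all parental arrays. That last pattern was found at 4.21% of all kept probe sets. The 667 seen in the natural tetraploids alone passed the level filter only through TD or TTR13. Of these, 596 (89.4%) were under the median on all parental arrays. Only 4 were above it in T. urartu and not in Ae. longissima, 11 the reverse, 0 in both, and 56 were mixed.

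**Figure D4:**
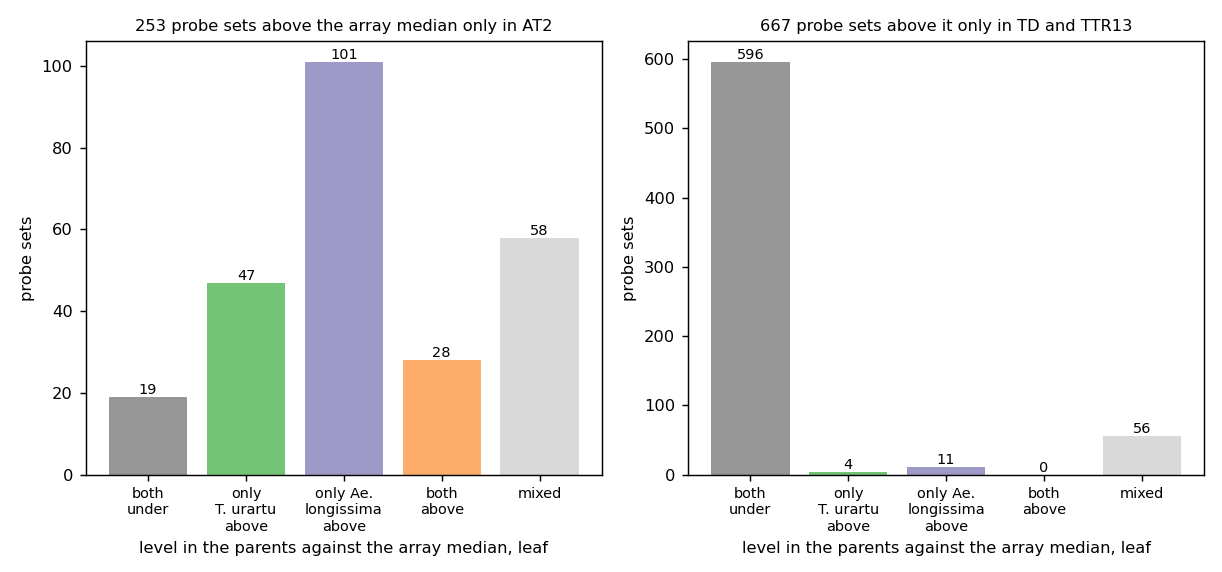
Parental levels of the probe sets above the array median only in AT2 (left, 253) or only in the natural tetraploids (right, 667), as numbers of probe sets under or above the median on all arrays of each parent. In the right panel 596 are under the median in both parents, and in the left panel 101 are above it in Ae. longissima alone. The panels have separate vertical scales.

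The difference between the diploid parents was measured on other arrays, but in the same fit as the calls of AT2 against the natural tetraploids. The calls therefore share an estimate of spread for each probe set, and a small spread favours a call in both comparisons. AT2 also descends from these parents. The shares below are given as a description and not as independent evidence. T. urartu exceeded Ae. longissima at 23% of all kept probe sets, and Ae. longissima exceeded T. urartu at 23.9%. Where AT2 was higher in all 8 pairs, the excess was on the side of Ae. longissima at 45.6% of probe sets and on that of T. urartu at 24.3%. Where AT2 was lower in all 8 pairs, Ae. longissima was the higher parent at 23.2% and T. urartu at 14.3%. Among all probe sets called higher in AT2, Ae. longissima was the higher parent at 31% and T. urartu at 26.4%, and among all called lower at 22% and 21.4%. Among those not called the shares were 18.6% for Ae. longissima and 20.9% for T. urartu.

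Gene names were available for 200 probe sets, of which 103, for 66 genes, were kept. Of these 30 were called higher in AT2, 27 lower and 46 in neither direction, against 36.3% and 21.9% called over all kept probe sets. Their median log2 difference was 0.02, against 0.12 overall. The genes are described below by role, with the lowest, median and highest log2 level of the 12 AT2 and 6 natural arrays. Beside each group stands how many of its calls were kept with genotype as a random block, where the correlation between arrays of a genotype was estimated at 0.644.

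In the defence group all 3 kept probe sets, out of 4, were called higher with no overlap of arrays. They read 2 genes, with a group median of 2.53. Over all kept probe sets 36.3% were called higher, and 13.7% had all AT2 arrays above all natural arrays. None of the 3 calls was kept with genotype as a random block (adjusted p = 0.0534 to 0.584 with an estimated correlation) or with genotype means as units (adjusted p = 0.541 to 0.832). XIP-I encodes an inhibitor of fungal xylanases. Its probe set Ta1200.1.S1_at had 6.05, 8.24 and 9.97 in AT2 leaves and 5.28, 5.46 and 5.70 in natural leaves, a 5.79-fold rise (log2 difference 2.53, SE 0.28, adjusted p = 3.97e-07). The companion probe set Ta1200.1.S1_x_at had 4.95, 7.12 and 8.98 in AT2 leaves and 3.58, 3.86 and 4.07 in natural leaves, at least 4.48-fold (fitted difference 3.05, SE 0.31, adjusted p = 1.12e-07). PR5, a thaumatin-like pathogenesis-related protein, had 4.85, 6.21 and 9.62 in AT2 leaves and 3.48, 3.88 and 4.43 in natural leaves, at least 3.25-fold (fitted difference 2.51, SE 0.32, adjusted p = 2.75e-06). The 2 genes were not highest in the same generation. XIP-I (Ta1200.1.S1_at) averaged 9.71, 8.13, 6.59 and 7.62 in S5 to S8 and PR5 averaged 5.11, 5.61, 7.10 and 7.98, and the generations differed for both (F test, adjusted p = 8.3e-04 and 2.3e-03). Both genes respond to stress and infection, and whether the plants differed in either was not tested.

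Calls at genes of glutathione and peroxide metabolism were mostly falls. Of 10 kept probe sets, for 5 genes, 7 were called lower and 1 higher, with a median of -0.64. Over all kept probe sets 21.9% were called lower. The falls were at GSTZ1, Prx1, lgul and CAT1, some of them read by several probe sets. Trx-M was not called (0.14, adjusted p = 0.0869). The random block kept 4 of these 8 calls. They were GSTZ1 Ta237.1.S1_at and Ta237.1.S1_a_at, Prx1 Ta6572.1.S1_at and lgul Ta8554.1.S1_at. With genotype means as units only the 2 at GSTZ1 were kept, and Prx1 (adjusted p = 0.0696) and lgul (adjusted p = 0.481) lost theirs. GSTZ1 encodes a zeta-class glutathione transferase. Its probe set Ta237.1.S1_at had 2.80, 3.06 and 3.49 in AT2 leaves, under the array median throughout, and 7.47, 8.12 and 8.91 in natural leaves, at least 10.3-fold lower (fitted difference -5.05, SE 0.09, adjusted p = 2.74e-22). Another GSTZ1 probe set, Ta237.1.S1_a_at, was well detected in AT2 with 8.23, 8.71 and 9.26, and had 10.22, 10.32 and 10.48 in natural leaves (-1.62, SE 0.08, adjusted p = 2.59e-13). The last, TaAffx56524.1.S1_at, had 8.29, 8.79 and 9.45 in AT2 leaves and 9.18, 9.47 and 9.55 in natural leaves (-0.62, SE 0.08, adjusted p = 7.75e-06). All 3 were lower in AT2, by amounts from 1.54-fold upwards.

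The lactoylglutathione lyase gene lgul, which helps to detoxify methylglyoxal, had 8.51, 8.99 and 9.24 at Ta8554.1.S1_at in AT2 leaves and 9.50, 10.20 and 10.94 in natural leaves (-1.27, SE 0.10, adjusted p = 2.06e-09), and its other probe set was not called (0.20, adjusted p = 1). The catalase gene CAT1, whose product breaks down hydrogen peroxide in peroxisomes, was strongly expressed and had 12.72, 13.12 and 13.24 in AT2 leaves and 13.29, 13.32 and 13.41 in natural leaves, a small fall with no overlap (-0.26, SE 0.04, adjusted p = 1.53e-04). For CAT1 3 of the 8 pairs were called, and its call was lost with genotype as a random block or genotype means as units. The redox gene Prx1 gave opposite answers by probe set. Ta6572.1.S1_at had 8.92, 9.41 and 9.77 in AT2 leaves and 10.80, 11.31 and 11.90 in natural leaves (-1.98, SE 0.09, adjusted p = 3.44e-14). Ta6572.3.S1_at was also lower (-0.65, SE 0.09), whereas Ta6572.1.S1_a_at, with 11.60, 12.17 and 12.67 in AT2 leaves and 11.09, 11.71 and 12.85 in natural leaves, was slightly higher (0.34, SE 0.09, adjusted p = 3.26e-02). That last call was lost on leaving out any of 10 arrays (adjusted p up to 0.21), and against TTR13 alone the difference was -0.33.

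DMAS1 encodes deoxymugineic acid synthase, which makes the chelator that grasses release to take up iron. Its 3 probe sets were called in opposite directions. Ta5335.3.S1_a_at had 4.74, 5.17 and 5.31 in AT2 leaves and 7.41, 8.01 and 8.54 in natural leaves, with AT2 close to the array median (-2.86, SE 0.09, adjusted p = 2.25e-17). Ta5335.1.A1_x_at had 6.71, 6.92 and 7.50 in AT2 leaves and 5.61, 6.25 and 6.86 in natural leaves (0.77, SE 0.06, adjusted p = 3.44e-09), and Ta5335.1.A1_at had 6.35, 7.04 and 7.79 in AT2 leaves and 5.43, 6.36 and 7.18 in natural leaves (0.74, SE 0.10, adjusted p = 1.50e-05). The natural accessions differed at these rising probe sets, with 6.77 and 6.94 in TD and 5.74 and 5.76 in TTR13, and against TD alone neither was called (0.26 and 0.15). Under the random block Ta5335.3.S1_a_at alone kept its call. PCS1, the phytochelatin synthase gene, was not called (0.29, adjusted p = 0.457).

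LTP3, a lipid transfer protein gene, was lower at both probe sets. Ta1282.4.S1_at had 5.96, 6.45 and 7.41 in AT2 leaves and 9.09, 9.60 and 9.83 in natural leaves, 8.12-fold lower (-3.02, SE 0.13, adjusted p = 1.10e-14). Ta1282.1.S1_x_at had 10.03, 10.69 and 11.75 in AT2 leaves and 11.22, 12.23 and 12.61 in natural leaves (-1.19, SE 0.15, adjusted p = 1.84e-06), with some overlap, and lost its call with genotype as a random block (adjusted p = 0.473 with an estimated correlation).

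Among transporters, TPC1, which encodes a calcium channel, had 6.01, 6.35 and 6.99 in AT2 leaves and 7.63, 7.86 and 8.14 in natural leaves, 2.76-fold lower (-1.47, SE 0.09, adjusted p = 1.22e-11). The plasma-membrane proton pump gene ha1 moved the other way at 2 of its 3 probe sets. Ta28364.1.S1_at had 12.61, 12.82 and 12.94 in AT2 leaves and 12.26, 12.36 and 12.44 in natural leaves (0.45, SE 0.04, adjusted p = 2.03e-08). Ta28364.1.S1_x_at had 12.84, 13.03 and 13.13 in AT2 leaves and 12.57, 12.62 and 12.70 in natural leaves (0.38, SE 0.04, adjusted p = 2.23e-07). The remaining probe set was not called (-0.03). Under the random block TPC1 and ha1 Ta28364.1.S1_at were kept, and ha1 Ta28364.1.S1_x_at was not (adjusted p = 0.095 with an estimated correlation). With genotype means as units TPC1 kept its call (adjusted p = 0.041) and ha1 Ta28364.1.S1_at lost it (adjusted p = 0.734).

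Single genes with large differences were GLU1A, PIMT and WZF1. GLU1A encodes a beta-glucosidase of the kind that releases toxic benzoxazinoids from their stored glucosides. It had 4.64, 4.96 and 5.36 in AT2 leaves and 7.90, 9.62 and 10.89 in natural leaves (-4.57, SE 0.22, adjusted p = 1.59e-13). The AT2 levels lay close to the array median, so the size of the fall is uncertain, and the parental levels lay there too, with means of 5.26 and 4.97 in the parents Ae. longissima and T. urartu. PIMT encodes a methyltransferase that repairs aged proteins at isoaspartyl residues. It had 7.79, 9.17 and 9.55 in AT2 leaves and 5.49, 6.70 and 7.72 in natural leaves, 4.81-fold higher (2.27, SE 0.12, adjusted p = 1.07e-12), and averaged 10.12 in Ae. longissima and 6.69 in T. urartu. WZF1, a zinc-finger protein gene, had 3.23, 4.30 and 6.85 in AT2 leaves and 7.06, 7.68 and 8.81 in natural leaves, at least 6.23-fold lower (fitted difference -3.19, SE 0.21, adjusted p = 5.56e-11). Its generations differed (F test, adjusted p = 2.1e-05), with 6.55 in S5 and 3.54 to 4.46 in S6 to S8, and 8 of the 12 AT2 arrays were under their median. GLU1A, PIMT and WZF1 kept their calls under the random block, but with genotype means as units PIMT (adjusted p = 0.513) and WZF1 (adjusted p = 0.459) lost theirs.

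**Figure D5:**
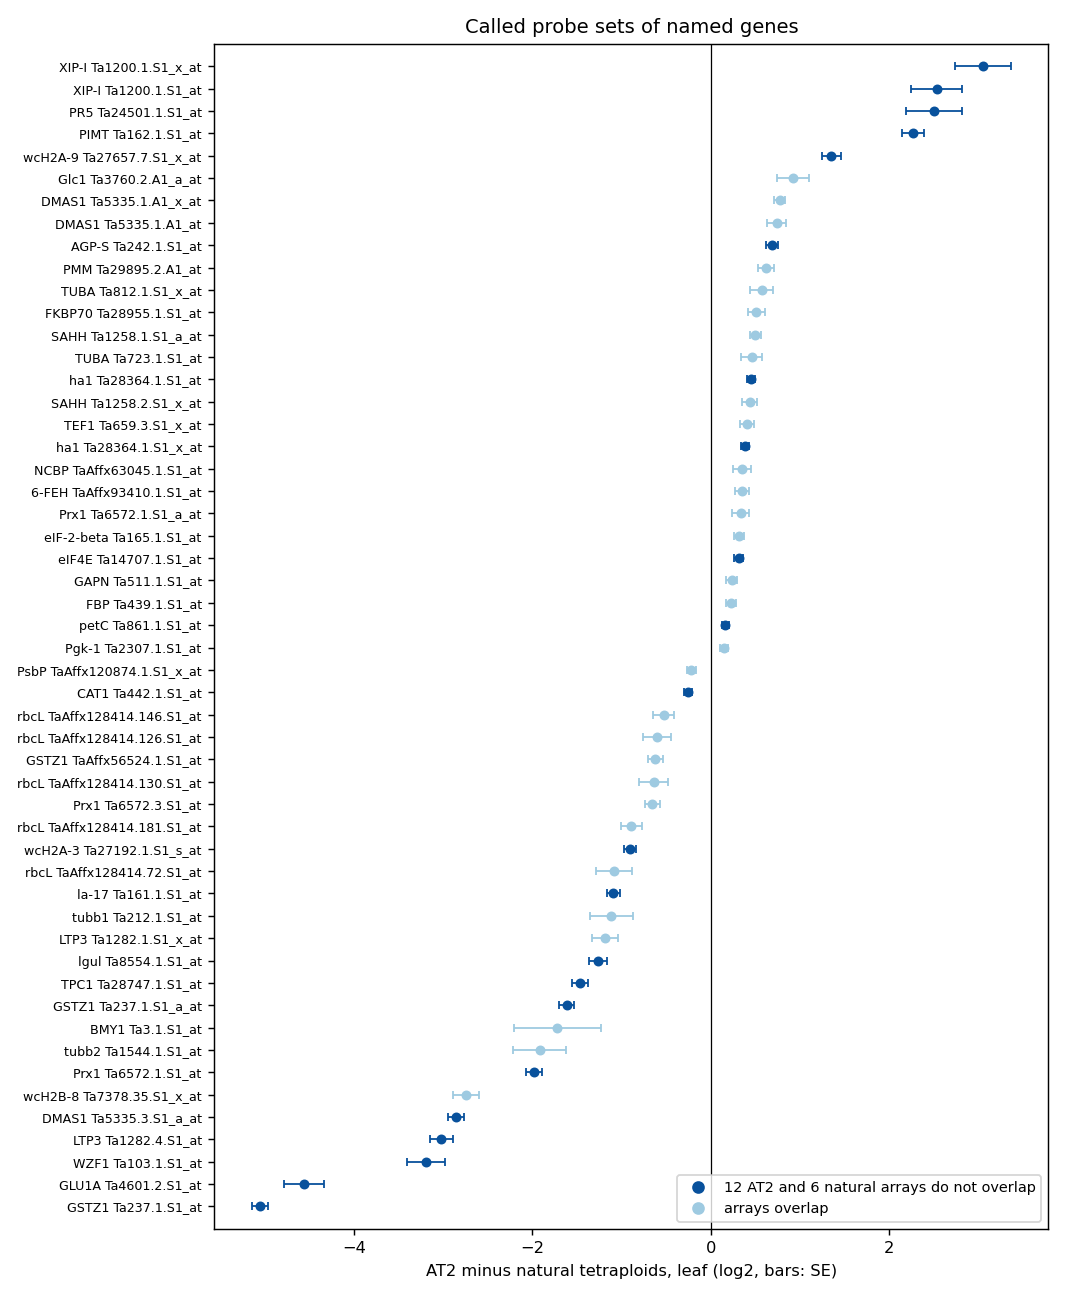
Log2 difference of AT2 minus the natural tetraploids in leaf, with its standard error, for the 52 called probe sets of named genes chosen by the rule, dark where the 12 AT2 and 6 natural arrays do not overlap. Fitted falls reach -5.05 at GSTZ1 and fitted rises 3.05 at XIP-I, both against levels under the array median and so of uncertain rank, while the called genes of sugar metabolism and translation lie between 0.15 and 0.68.

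Nuclear photosynthesis genes differed little. Of 5 kept probe sets 1 was called higher, 1 lower and 3 in neither direction, with a median of 0.01. The gene petC, for the Rieske protein of the cytochrome b6f complex, had 13.87, 13.91 and 14.09 in AT2 leaves and 13.65, 13.79 and 13.85 in natural leaves (0.16, SE 0.04, adjusted p = 4.16e-03), and against TD alone it was not called (0.0958, adjusted p = 0.886). One PsbP probe set, for a subunit of the oxygen-evolving complex, was slightly lower (-0.22, SE 0.05, adjusted p = 9.21e-03), but the difference was 0.0084 against TD alone. PRK, the Calvin cycle kinase phosphoribulokinase, and PsbO differed by 0.01 and 0.04 (adjusted p = 1 for both). Neither call of the group was kept under the random block (adjusted p = 1 with an estimated correlation).

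The plastid gene rbcL, for the large subunit of Rubisco, is read by 28 annotated probe sets, of which 11 were kept. None was called higher, 5 were called lower (against 21.9% of all kept probe sets) and 6 were not called, with a median of -0.50. The largest fall was at TaAffx128414.72.S1_at, with 7.50, 8.56 and 9.34 in AT2 leaves and 9.15, 9.59 and 10.32 in natural leaves (-1.09, SE 0.20, adjusted p = 5.52e-04). TaAffx128414.181.S1_at had 8.35, 8.91 and 9.75 in AT2 leaves and 9.21, 9.86 and 10.47 in natural leaves (-0.89, SE 0.12, adjusted p = 6.32e-06). The others called were at -0.53 to -0.64, and against TD alone all 5 calls were lost (-0.73 to 0.04). At TaAffx128414.126.S1_at the call was also lost on leaving out any of 4 natural arrays (adjusted p up to 0.0981), and at TaAffx128414.130.S1_at on leaving out any of 3 (up to 0.112). None of the 5 was kept under the random block (adjusted p = 0.396 to 1 with an estimated correlation). Ta24976.1.S1_x_at and TaAffx128414.1.A1_x_at stood at 14.44 to 14.56 on every leaf array, at the top of the scale, and can show no difference.

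Genes of sugar and starch metabolism were mostly called higher, by small amounts. Of 7 kept probe sets, each for a different gene, 6 were called higher and 1 in neither direction, with a median of 0.23. Over all kept probe sets 36.3% were called higher, and the median was 0.12. The random block kept none of the 6 (adjusted p = 0.0503 to 1 with an estimated correlation). AGP-S encodes the small subunit of ADP-glucose pyrophosphorylase, which supplies ADP-glucose for starch. It had 11.09, 11.37 and 11.51 in AT2 leaves and 10.49, 10.56 and 11.00 in natural leaves, 1.61-fold higher (0.68, SE 0.07, adjusted p = 3.27e-08), and was called in all 8 pairs. The phosphomannomutase gene PMM, of the route to ascorbate, had 6.63, 7.04 and 7.56 in AT2 leaves and 6.06, 6.59 and 6.68 in natural leaves (0.62, SE 0.09, adjusted p = 1.74e-05). The fructan exohydrolase gene 6-FEH differed by 0.35 (SE 0.08, adjusted p = 4.41e-03), but by 0.17 against TD alone (adjusted p = 1), and 1-FEH was not called (-0.28, adjusted p = 0.894).

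The remaining rises of this group were weaker: fructose-bisphosphatase FBP 0.23 (SE 0.06), GAPN, a non-phosphorylating glyceraldehyde-3-phosphate dehydrogenase, 0.23 (SE 0.06), and phosphoglycerate kinase Pgk-1 0.15 (SE 0.04). The call of FBP was lost without TTR13 replicate 1 (0.19, adjusted p = 0.0662), that of GAPN on leaving out any of 5 arrays (adjusted p up to 0.11) and that of Pgk-1 on leaving out any of 7 (up to 0.151). GAPN was not called against TD alone (0.18, adjusted p = 0.662), nor were FBP (0.20, adjusted p = 0.212) and Pgk-1 against TTR13 alone (-0.0239, adjusted p = 1). The beta-amylase gene BMY1 had a lower mean in AT2 leaves (-1.72, SE 0.48, adjusted p = 3.44e-02), but the high natural levels were those of 2 TTR13 arrays. It had 3.61, 4.86 and 7.28 in AT2 leaves, 4.01 to 4.32 in TD and 5.95, 10.90 and 10.03 on the 3 arrays of TTR13. Against TD alone the difference was 0.65, and leaving out any of 11 arrays lost the call (adjusted p up to 0.221). The random block did not keep the call of BMY1 either.

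Among genes of translation 4 of 7 kept probe sets were called higher and 3 in neither direction, with a median of 0.32. The share called higher over all kept probe sets was 36.3%, and their median was 0.12. None of the 4 kept its call under the random block (adjusted p = 0.444 to 1 with an estimated correlation). The elongation factor TEF1 had 11.37, 11.96 and 12.13 in AT2 leaves and 11.30, 11.43 and 11.60 in natural leaves at Ta659.3.S1_x_at (0.41, SE 0.07, adjusted p = 4.23e-04), while its probe set Ta659.2.S1_x_at was not called (0.02). The cap-binding initiation factor eIF4E had 9.71, 9.90 and 10.10 in AT2 leaves and 9.44, 9.57 and 9.70 in natural leaves, without overlap (0.32, SE 0.05, adjusted p = 8.53e-05). The initiation factor subunit eIF-2-beta differed by 0.32 (SE 0.05, adjusted p = 1.38e-04) and the cap-binding protein NCBP by 0.35 (SE 0.10, adjusted p = 2.90e-02), a call lost on leaving out any of 10 arrays (adjusted p up to 0.177). Against TTR13 alone TEF1 (0.30, adjusted p = 0.0933), eIF-2-beta (0.18, adjusted p = 0.26) and NCBP (0.19, adjusted p = 1) were not called.

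SAHH encodes S-adenosylhomocysteine hydrolase, which clears the by-product of methylation reactions. It was higher at both probe sets, with 13.20, 13.44 and 13.60 in AT2 leaves and 12.26, 13.05 and 13.30 in natural leaves at Ta1258.1.S1_a_at (0.50, SE 0.06, adjusted p = 3.09e-06), and a difference of 0.44 (SE 0.08) at Ta1258.2.S1_x_at. TTR13 averaged 13.26 and 12.36 at these probe sets and TD 12.59 and 11.54, and against TTR13 alone neither was called (0.16 and 0.03). The random block kept neither (adjusted p = 0.606 and 1 with an estimated correlation). The purine genes APRT and AdSS were not called (0.04 and 0.06). FKBP70, an immunophilin of the heat shock machinery, was higher (0.51, SE 0.10, adjusted p = 9.37e-04). Against TD alone it was not called (0.42, adjusted p = 0.0713). Glc1 differed by 0.92 (SE 0.18, adjusted p = 7.52e-04) but by -0.12 against TTR13 alone. Neither FKBP70 nor Glc1 kept its call under the random block. The gene la-17 was lower, with 5.53, 5.81 and 6.10 in AT2 leaves and 6.64, 6.94 and 7.24 in natural leaves (-1.09, SE 0.07, adjusted p = 4.53e-11).

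Tubulins and histones moved in both directions. Of 9 kept tubulin probe sets 2 were higher, 2 lower and 5 not called, with a median of 0.02. The beta-tubulin gene tubb2 had 6.92, 8.73 and 11.19 in AT2 leaves and 10.37, 10.58 and 11.04 in natural leaves (-1.92, SE 0.30, adjusted p = 6.28e-05), and tubb1 had 9.13, 9.61 and 11.64 in AT2 leaves and 9.80, 10.95 and 11.69 in natural leaves (-1.12, SE 0.24, adjusted p = 2.77e-03). For tubb1 the accessions were apart, with means of 11.66 in TD and 10.07 in TTR13. The alpha-tubulin gene TUBA was higher by 0.57 (SE 0.13) and 0.46 (SE 0.12) at its 2 kept probe sets, the smaller of which lost its call without TTR13 replicate 3 (0.39, adjusted p = 0.0836). Against TD alone neither was called (0.43 and 0.50, adjusted p = 0.317 and 0.0595), and against TTR13 alone Ta723.1.S1_at was not (0.41, adjusted p = 0.217). The random block kept none of the 4 tubulin calls (adjusted p = 1 with an estimated correlation).

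Of 18 histone probe sets 7 were kept, and of these 1 was higher, 2 lower and 4 not called, with a median of -0.40. Histone genes are strongly expressed in dividing cells. All 3 calls were kept with genotype as a random block and none with genotype means as units (adjusted p = 0.341 to 0.704). wcH2A-9 had 4.97, 5.49 and 6.22 at Ta27657.7.S1_x_at in AT2 leaves and 3.68, 4.23 and 4.71 in natural leaves, at least 1.77-fold higher (fitted difference 1.35, SE 0.10, adjusted p = 7.15e-10). Its other probe sets were not kept, and their levels lay both ways. Ta27657.1.S1_at was at 3.624 to 5.046 in AT2 and 4.745 to 5.722 in natural leaves. Ta27657.6.S1_x_at was at 4.718 to 5.876 and 4.354 to 5.34. wcH2A-3 had 4.69, 5.29 and 5.75 in AT2 leaves and 5.84, 6.08 and 6.60 in natural leaves (-0.90, SE 0.06, adjusted p = 1.28e-10). At Ta7378.35.S1_x_at wcH2B-8 had 3.13, 3.54 and 4.72 in AT2 leaves and 4.68, 6.23 and 8.24 in natural leaves, at least 3.06-fold lower (fitted difference -2.74, SE 0.15, adjusted p = 8.83e-13). The accessions were apart here too, with means of 8.05 in TTR13 and 4.71 in TD. At wcH2B-8 Ta7378.1.S1_at (-0.24) and Ta7378.1.S1_x_at (-0.40) the difference was not called.

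Probe sets of 1 gene did not always move together. Of 21 named genes with several kept probe sets, 10 had at least 2 called, and in 3 of these (DMAS1, Prx1 and UBC1) the calls ran both ways. Over the whole annotation, with genes known only by an identifier included, 164 genes had several kept probe sets, 80 had at least 2 called and 17 had calls both ways. For such genes no single direction can be given, and which homeologs or copies each probe set reads was not tested.

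The same contrast in young inflorescence, on 18 other arrays of the same lines, showed which leaf differences extended to another organ. There 9033 of 24306 probe sets were higher in AT2 (37.2%) and 5720 lower (23.5%). Of the probe sets higher in all 8 pairs in leaf and kept in inflorescence, 1358 of 1596 (85.1%) were also higher there and 35 were lower. Of those lower in all 8 pairs, 1426 of 1569 (90.9%) were also lower and 36 higher. For all leaf calls the shares were smaller, with 63.4% of 7419 rises and 66.2% of 4177 falls called the same way. The size of the difference was tested against leaf with an interaction term, and it differed for 12148 of 28626 probe sets (42.4%), with 6983 above 0 (24.4%) and 5165 below 0 (18%). Among the 12148 were 768 called in opposite directions in the 2 organs. With each array centred on the median of the probe sets kept, 6014 differences were called above and 6040 below 0, and the excess above 0 was gone.

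Named genes showed both patterns. GLU1A was lower by nearly the same amount in both organs, -4.57 in leaf and -4.73 in inflorescence (difference 0.16, adjusted p = 1), and la-17 was at -1.09 and -1.03. DMAS1 was lower at Ta5335.3.S1_a_at in both, by more in inflorescence (-2.86 and -3.81, difference 0.95, adjusted p = 2.3e-07). The FKBP70 probe set was higher in AT2 leaves (0.51) and lower in AT2 inflorescence (-0.26), and LTP3 at Ta1282.1.S1_x_at was lower in leaves (-1.19) and higher in inflorescence (0.43). Of the leading probe sets, Ta7259.1.S1_a_at was higher by 8.02 in leaf and 7.99 in inflorescence, whereas Ta521.1.S1_at and Ta30807.1.S1_at did not pass the level filter in inflorescence.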

How the data were processed

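The deposited values are log2 expression levels per probe set, which the authors made from Affymetrix GeneChip Wheat Genome Arrays by robust multichip averaging with limma, with MAS5 for present calls, whose versions are not given in the sources used here. All 54 columns matched a sample (0 did not), and 27 leaf arrays were fitted together. As present calls were not used here, a probe set was kept if 1 or more of the 6 tetraploid genotypes had all 3 arrays above the array's own 65th percentile, which left 24586 of 61115. Levels were fitted with limma 3.58.1 in R 4.3.3 (lmFit, eBayes, 1 mean per genotype), and a call required p under 0.05 after Benjamini-Yekutieli adjustment, as in the study. The main contrast was the mean of 4 generations minus the mean of 2 natural tetraploids. The contrast within inflorescence was fitted on 27 further arrays and the difference between tissues on all 54. Differences between low levels, near background, were bounded by raising the low side to each array's median.

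GEO's platform annotation gave a gene for 1273 probe sets, of which 200 carried a name for 102 genes, checked against IWGSC CS RefSeq names through gene identifiers. Genes named in the text were the 12 largest rises and 12 largest falls among named probe sets called with no overlap of arrays, filled up from calls with overlap, the 5 largest rises and falls over all probe sets with no overlap, and the called members of gene groups. Genes that were not called, and UBC1, are named beside these to complete their groups. Members, lists and groups were chosen with earlier results of these data known. Alternatives were another adjustment, 4 other filters, fits of 18 arrays, a fold of 1.5, 3 scalings, unshared probe sets, a replicate block, genotype as block or unit, 1 accession, and leaving out each generation or array. The number of arrays limits the precision. Python 3.11.15 and matplotlib 3.10.9 drew the figures.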

Additional observations from a re-analysis of the deposited data

Results flagged for a closer look

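The AT2 minus natural difference was not the same in leaf and in young inflorescence for 12148 of 28626 probe sets (interaction term over all arrays, adjusted p under 0.05), and 768 were called in opposite directions. Of 62 named and leading probe sets 44 differed between the tissues. The values below are the log2 difference in leaf minus that in inflorescence, and a probe set near background in inflorescence has no difference to show there.

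Differences that stood higher in leaf were found for the defence genes, with 2.49 for PR5 and 1.83 and 2.44 for XIP-I, whose levels in inflorescence were mostly under the array median. The others above 0 were wcH2A-9 (1.44), PIMT (1.59), DMAS1 (0.73, 0.68 and 0.95), FKBP70 (0.78), SAHH (0.35 at both probe sets), AGP-S (0.39), TEF1 (0.42), eIF-2-beta (0.40), eIF4E (0.36) and ha1 Ta28364.1.S1_x_at (0.35). Among leading probe sets they were 8.50 for Ta521.1.S1_at, 7.76 for Ta23035.1.A1_s_at, 1.39 for Ta24245.1.A1_at and 7.15 for TaAffx97737.1.A1_at.

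Differences that stood lower in leaf were found for GSTZ1 (-1.17 and -4.57), Prx1 (-0.97 and -0.64), lgul (-0.74), LTP3 (-1.62 and -2.52), WZF1 (-3.09) and TPC1 (-0.76). They were also found for the tubulins TUBA Ta723.1.S1_at (-0.66), tubb1 (-1.17) and tubb2 (-2.01), the histones wcH2A-3 (-0.53) and wcH2B-8 (-0.62), rbcL (-1.34, -0.94 and -1.47), FBP (-0.51) and GAPN (-0.75). For the leading falls the values were -10.10 at Ta30807.1.S1_at, -8.92 at Ta28695.3.S1_at, -3.66 at TaAffx80290.1.S1_x_at, -9.21 at Ta303.2.S1_at and -9.03 at Ta611.1.A1_at. At TaAffx80290.1.S1_x_at AT2 was also lower in inflorescence, by 5.77, while the other 4 did not pass the level filter there.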

How the results depend on the processing

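AT2 is 1 line and each accession 1 genotype, so counts fitted over arrays, or with genotype as block or unit, describe these lines. Levels near the array median have no reliable fold. Besides the counts with genotype as a random block (4552 called in either direction, 2310 called higher, 2242 called lower) or as unit (2047, 654 and 1393), a minimum fold change of 1.5 left 9021 calls, 5125 of them higher, and probe sets without shared probes gave 9263 and 5538, fewer by construction. With genotype means as units, 8606 had an unadjusted p under 0.05 and 5146 passed Benjamini-Hochberg adjustment (2715 higher and 2431 lower). Benjamini-Hochberg adjustment raised the rises called in all 8 pairs to 3038 from 1984. The other filters, scalings and subsets kept every count within 1.5 times, and the share of rises was 59.2% to 61.2% under the 3 scalings. Median centring gave 6014 above and 6040 below 0 for the difference between tissues. Leaving out 1 of the 18 arrays gave 13456 to 14397 calls, 8369 to 8986 of them higher and 5074 to 5479 lower, 1688 to 1961 higher and 1957 to 2051 lower in all 8 pairs, and for the difference between tissues 6642 to 7144 above 0 and 4901 to 5286 below 0. The replicate block gave 14224 calls, 8883 higher and 5341 lower. The replicate numbers did not pair the samples (deviations of same-numbered arrays correlated at -0.265 to 0.179, mean 0.00454, and 7 of 18 arrays correlated best with their own number), and under the block BMY1 (adjusted p = 0.055) and Prx1 Ta6572.1.S1_a_at (0.0507) lost their calls. Of 62 named and leading probe sets, 9 lost their call on leaving out some array. Against TD alone the differences of BMY1 (0.65), PsbP TaAffx120874.1.S1_x_at (0.0084) and rbcL TaAffx128414.130.S1_at (0.042) changed sign, and against TTR13 alone those of Prx1 Ta6572.1.S1_a_at (-0.33), Glc1 (-0.12) and Pgk-1 (-0.0239) did. With genotype as a random block 25 of the 62 kept their call and with genotype means as units 16 did, among them GSTZ1 Ta237.1.S1_at, GLU1A, LTP3 Ta1282.4.S1_at and all 10 leading probe sets. The cause of these changes was not tested.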

Other observations

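Some probe sets of named genes outside the groups were also called, and these were chosen after their values were seen. UBC1, a ubiquitin-conjugating enzyme gene, was higher at TaAffx51048.1.S1_at (0.46, adjusted p = 1.44e-04) and lower at TaAffx53697.1.S1_x_at (-0.51, adjusted p = 0.0104). The profilin gene PRO1, whose product binds actin, was higher at Ta5057.1.S1_x_at (0.35) and not called at Ta5057.3.A1_at (0.07). XTH, a xyloglucan-modifying enzyme gene of the cell wall, was lower (-0.32, adjusted p = 0.00332). Of all 784 kept probe sets that the annotation ties to a gene, 284 were higher and 168 lower in AT2 leaves. In either direction 57.7% of these were called, close to the 58.2% of all kept probe sets.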
